A study of Mus musculus with 316 samples.

Results

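Glycolysis and lactate formation were followed through 10 mouse genes, Hk2, Gpi1, Pfkl, Aldoa, Tpi1, Gapdh, Pgk1, Eno1, Pkm and Ldha, which were taken by symbol from a single-cell RNA sequencing table of 21970 mouse genes. All 10 were in the table. The cells formed 4 groups: 78 embryonic stem cells (ESC), 94 fetal liver haematopoietic stem cells (FL_HSC), 95 engrafted haematopoietic stem cells derived from bone marrow (Eng_BM-HSC) and 49 engrafted haematopoietic cells derived from embryonic stem cells (Eng_ES-HSC). Notch activation is in the series title, in stem cells derived from embryonic or induced pluripotent cells. Strain, age, genotype, treatment, time after engraftment, host and sort gate were not given in the sources used here. Each group carried its own library identifier and no animal or culture was named, so a group counted as 1 sample, group and library cannot be told apart, and no test was possible.

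Glycolysis splits glucose into pyruvate in the cytosol, yields ATP without oxygen, and supplies intermediates to biosynthesis. Lactate dehydrogenase then turns pyruvate into lactate and restores the NAD+ that glyceraldehyde-3-phosphate dehydrogenase needs. Pluripotent cells in culture and quiescent adult haematopoietic stem cells have both been described as relying on this route, and several of its genes are targets of the hypoxia-inducible factors. Messenger RNA does not measure flux.

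After near-identical profiles were averaged, 261 cells with at least 1000 genes at a TPM of 1 or more were kept, TPM being a transcript abundance scaled by length and by the total of the cell. They were 87 FL_HSC, 77 ESC, 76 Eng_BM-HSC, and 21 Eng_ES-HSC. They differed in richness, with medians of 4233, 5433, 2585 and 1609 genes in that order, and sequencing depth is unknown. Mitochondrial transcripts exceeded 50% of TPM in 24 ESC and 14 FL_HSC, and in 10 and 2 cells of Eng_BM-HSC and Eng_ES-HSC. The labels were checked against markers. All 77 ESC held at least 2 pluripotency genes, and 96.6% of FL_HSC and 97.4% of Eng_BM-HSC held at least 2 stem and progenitor genes, as did 79.2% of ESC. In Eng_ES-HSC only 33.3% of cells (7 of 21) did so, Procr and Meis1 were listed at 0 in all of them, 17 of 21 held at least 2 granulocyte genes, 9 at least 2 erythroid genes and 7 at least 2 T and NK cell genes. In FL_HSC, too, 50.6% of cells held at least 2 erythroid genes and 56.3% at least 2 monocyte and macrophage genes. The summed granulocyte level in Eng_ES-HSC ranged from 0 to 528684 TPM (median 834), against medians of 0 in ESC and Eng_BM-HSC and 1.41 in FL_HSC. The label of stem cell is therefore not borne out by these markers in most Eng_ES-HSC cells, and the group is called by its label only.

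Promoters are shown because the members' levels ran together and because hypoxia-inducible factors bind ACGTG or GCGTG cores. The RefSeq promoter table (GRCm38.p6) held 16 windows for the 10 genes, from which the 250 bases before each start site were read 5′ to 3′ on the gene's strand. The 5 below belong to the gene that differed from the rest between FL_HSC and ESC (Hk2), to 2 payoff-phase genes (Pgk1, Eno1) and to the final gene, with both of its starts in that table (Ldha; the bases after the first of these starts were not found in the GENCODE M21 transcripts of the gene). Capitals mark ACGTG or GCGTG on either strand, so CACGT and CACGC are matches on the opposite strand.
Hk2 chr6:82774455-82774704 (- strand): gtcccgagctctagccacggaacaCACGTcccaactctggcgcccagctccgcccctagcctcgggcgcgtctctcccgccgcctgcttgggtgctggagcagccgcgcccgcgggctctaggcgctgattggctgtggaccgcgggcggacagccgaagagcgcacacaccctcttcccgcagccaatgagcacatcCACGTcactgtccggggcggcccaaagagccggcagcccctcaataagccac
Pgk1 chrX:106186850-106187099 (+ strand): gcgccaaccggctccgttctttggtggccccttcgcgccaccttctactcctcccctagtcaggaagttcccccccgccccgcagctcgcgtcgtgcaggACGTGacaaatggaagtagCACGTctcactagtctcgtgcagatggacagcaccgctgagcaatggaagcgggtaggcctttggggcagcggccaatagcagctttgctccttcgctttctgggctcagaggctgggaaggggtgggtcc
Eno1 chr4:150236947-150237196 (+ strand): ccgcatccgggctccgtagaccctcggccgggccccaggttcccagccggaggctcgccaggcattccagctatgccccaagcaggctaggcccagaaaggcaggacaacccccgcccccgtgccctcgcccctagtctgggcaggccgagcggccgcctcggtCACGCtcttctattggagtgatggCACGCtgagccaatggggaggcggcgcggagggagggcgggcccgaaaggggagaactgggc
Ldha chr7:46845554-46845803 (+ strand): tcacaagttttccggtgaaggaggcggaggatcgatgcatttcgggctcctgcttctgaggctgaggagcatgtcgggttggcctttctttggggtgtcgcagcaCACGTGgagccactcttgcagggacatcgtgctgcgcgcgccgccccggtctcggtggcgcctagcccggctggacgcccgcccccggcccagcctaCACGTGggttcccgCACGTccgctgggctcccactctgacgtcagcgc
Ldha chr7:46846832-46847081 (+ strand): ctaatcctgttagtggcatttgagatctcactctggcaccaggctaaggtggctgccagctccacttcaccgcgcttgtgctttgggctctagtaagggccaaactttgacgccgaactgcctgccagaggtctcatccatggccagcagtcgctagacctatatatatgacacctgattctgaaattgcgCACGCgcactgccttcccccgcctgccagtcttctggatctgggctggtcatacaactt
An ACGTG or GCGTG match was present in 12 of the 16 windows and in 8 of the 10 genes, with none in the windows of Gpi1 and Tpi1. Over 32851 windows of the same length the share was 38.6%. Among the 16, 2 Aldoa windows overlap and share their match, and 2 Eno1 windows overlap and share their matches, so these sites count more than once. Counts of genes pool all windows of a gene, so only the counts of windows can be set beside the shares of windows. The 5 windows printed all hold a match. The cores ACGTG and GCGTG alone were in 16.6% and 28.2% of all windows. CACGTG, which reads the same on both strands and so holds ACGTG on both, was in 6.02% of all windows and in 1 member window, the Ldha window at 46845554. There it occurred at 2 places, which account for 4 of its 5 ACGTG matches. GGGCGG, a GC box, was in 10 member windows from 8 genes, against 32.7% of windows. TATAAA was in none of the 16 and in 12.4% of all. These are letter matches and say nothing of binding.

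Over all kept cells the 4 groups formed a high pair and a low pair. A median of 9 of the 10 genes was detected (TPM of at least 1) in an ESC and in an FL_HSC, of 5 in an Eng_BM-HSC and of 2 in an Eng_ES-HSC. All 10 were detected together in 30 ESC (39%) and 37 FL_HSC (42.5%), and in no cell of either engrafted group. Together they made up a median 0.495% of TPM in ESC and 0.511% in FL_HSC, against 0.166% and 0.102% in Eng_BM-HSC and Eng_ES-HSC. The mean of log2(TPM + 1) over the 10 genes was 6.28 ± 2.20 in ESC and 6.70 ± 2.22 in FL_HSC, against 2.88 ± 1.62 and 2.17 ± 1.87 in Eng_BM-HSC and Eng_ES-HSC (SD over 77, 87, 76 and 21 cells). The spread over cells exceeded the gap within each pair, and the ranges of all groups overlapped.

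**Figure D1:**
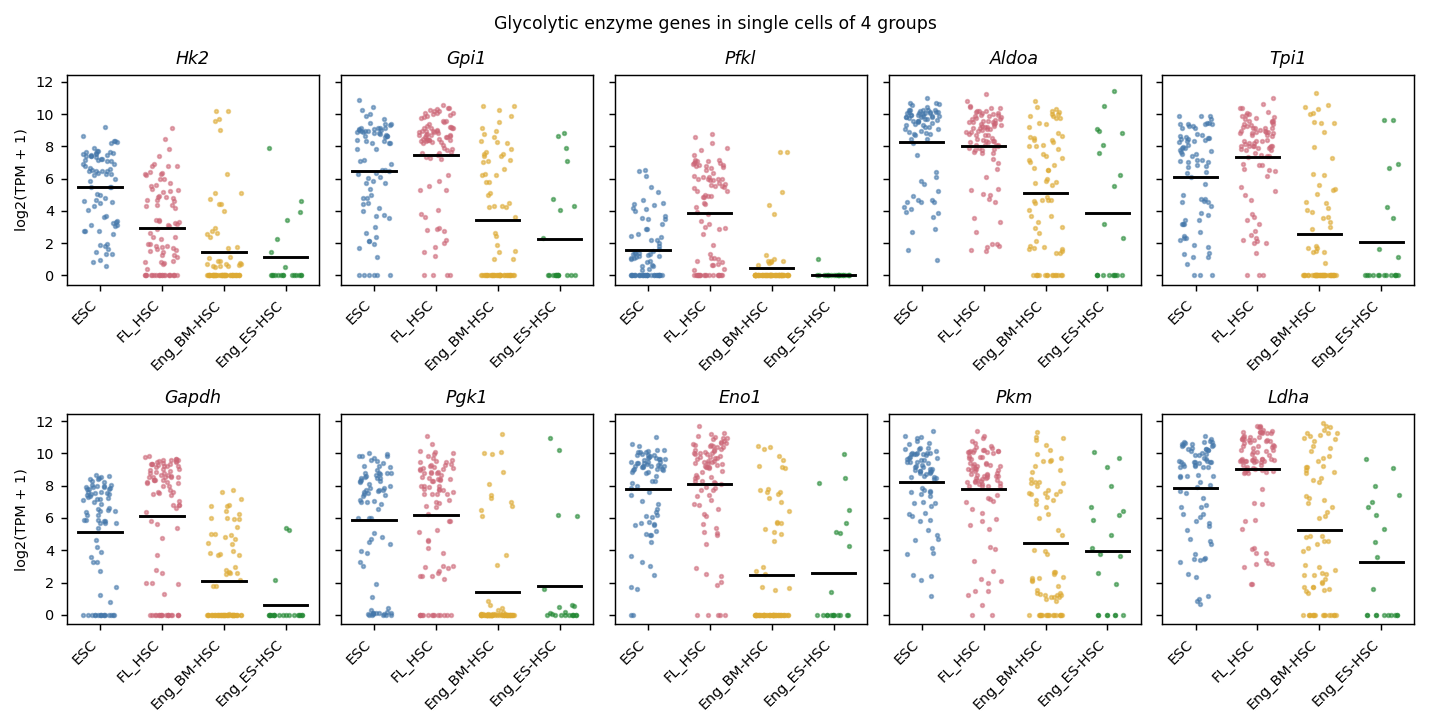
Level of each glycolytic enzyme gene, as log2(TPM + 1), in every kept cell (points) of the 4 groups, with the group mean as a bar (87 FL_HSC, 77 ESC, and 76 and 21 cells of Eng_BM-HSC and Eng_ES-HSC). ESC and FL_HSC points sit high for most genes, Pfkl is low in ESC, and many engrafted cells lie at 0.

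The first steps commit glucose to the pathway. Hk2, a hexokinase that phosphorylates incoming glucose (chromosome 6, 82725025 to 82774454, minus strand; GENCODE M21 coordinates on GRCm38 here and below), ranged from 0.479 to 579 TPM in ESC with a median of 76.4. In FL_HSC it ranged from 0 to 552 with a median of 4.29. In both engrafted groups the median was 0, with a highest cell of 1181 TPM in Eng_BM-HSC, compared with 243 in Eng_ES-HSC. Hk2 had its highest median and widest detection in ESC: it was detected in 96.1% of ESC and 67.8% of FL_HSC, against 27.6% and 28.6% of Eng_BM-HSC and Eng_ES-HSC. Gpi1, which converts glucose 6-phosphate to fructose 6-phosphate (chromosome 7, 34201330 to 34230336, minus strand), had medians of 227 TPM in ESC and 352 in FL_HSC, against 2.28 and 0 in Eng_BM-HSC and Eng_ES-HSC. Its highest cells reached 1886, 1515, 1470 and 452 TPM in that order, so single engrafted cells lay within the range of the other groups.

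Pfkl encodes the liver-type subunit of phosphofructokinase, the main control step (chromosome 10, 77986947 to 78010083, minus strand), and it set FL_HSC apart. Its median was 28.7 TPM in FL_HSC (0 to 439), 1.09 in ESC (0 to 92), 0 in Eng_BM-HSC (0 to 202) and 0 in Eng_ES-HSC (0 to 0.998). It was detected in 70.1% of FL_HSC (95% exact interval 59.4 to 79.5), 51.9% of ESC (40.3 to 63.5) and 9.21% of Eng_BM-HSC (3.78 to 18.1). In Eng_ES-HSC it was detected in 0 of 21 cells, with an exact upper limit of 16.1%, while a limit of 3 cells would be 14.3%. These intervals cover counting error over cells only.

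The middle steps split the sugar and begin to recover energy from it. Aldoa, the aldolase that splits fructose 1,6-bisphosphate (chromosome 7, 126795234 to 126800751, minus strand), had a median of 743 TPM in ESC (0.947 to 2073) and 434 in FL_HSC (1.91 to 2474). In Eng_BM-HSC the median was 50.2 (0 to 1793) and in Eng_ES-HSC 3.9 (0 to 2807), so the highest single cell was in the group with the lowest median. Tpi1, triosephosphate isomerase (chromosome 6, 124810586 to 124814296, minus strand), had medians of 136 TPM in ESC, 278 in FL_HSC and 0 in both engrafted groups, where it was detected in 44.7% and 38.1% of cells. Gapdh, the dehydrogenase that makes NADH (chromosome 6, 125161715 to 125166467, minus strand), had a median of 282 TPM in FL_HSC (0 to 921) and 85.7 in ESC (0 to 397). It was detected in 44.7% of Eng_BM-HSC, with a highest value of 215 TPM, and in 3 of 21 Eng_ES-HSC, with a highest value of 39.9. Gapdh was listed at 0 in 15 ESC and 15 FL_HSC cells, so an exact 0 in this table need not mean absence.

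Pgk1, phosphoglycerate kinase, makes the first ATP of the payoff phase (chromosome X, 106187100 to 106203699, plus strand). Its medians were 181 TPM in ESC (0.00264 to 1027) and 208 in FL_HSC (0 to 2126), and it was detected in 18.4% of Eng_BM-HSC and 23.8% of Eng_ES-HSC. In the engrafted cells that held it, the median was 160 TPM in Eng_BM-HSC and 71.3 in Eng_ES-HSC, against 234 in detecting ESC and 254 in detecting FL_HSC. The mean log2(TPM + 1) of detecting cells was 7.43 in ESC and 7.36 in FL_HSC, against 7.57 and 7.02 in Eng_BM-HSC and Eng_ES-HSC (14 and 5 cells), so the groups were apart in the share of cells more than in the level per detecting cell. Eno1, enolase (chromosome 4, 150236721 to 150248879, plus strand), had medians of 519 TPM in ESC and 599 in FL_HSC, against 0 and 0.000792 in Eng_BM-HSC and Eng_ES-HSC, with detection in 97.4%, 94.3%, 38.2% and 42.9% of cells. Its highest cells held 2115, 3284, 1414 and 993 TPM in the same order.

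The last steps make pyruvate and lactate. Pkm, pyruvate kinase (chromosome 9, 59656368 to 59679375, plus strand), was the most widely detected member in Eng_ES-HSC, at 66.7% of cells. Its medians were 487 TPM in ESC (1.21 to 2649) and 389 in FL_HSC (0 to 2660), against 9.04 in Eng_BM-HSC (0 to 2531) but 12.7 in Eng_ES-HSC (0 to 1066). Ldha, the lactate dehydrogenase A chain (chromosome 7, 46841475 to 46855627, plus strand), was detected in all 87 FL_HSC, at 2.81 to 3309 TPM with a median of 798. Its medians were 581 TPM in ESC (0.616 to 2163), 24.9 in Eng_BM-HSC (0 to 3715) and 2.02 in Eng_ES-HSC (0 to 804). By mean TPM, a per-length scale, Ldha ranked first of the 10 in FL_HSC (25.1% of their sum) and Eng_BM-HSC (32.7%), while Aldoa ranked first in ESC (19.4%) and Eng_ES-HSC (31.2%). Pfkl ranked last in ESC and both engrafted groups and Hk2 last in FL_HSC.

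Differences between groups are given on the log2(TPM + 1) scale, which understates low genes, and 1 unit or more was counted as apart. The shares over all genes here and below include genes with a mean under 1 on this scale, which cannot fall by 1. The 10 genes had higher means in ESC and FL_HSC, so these shares are not of genes at like levels. FL_HSC and ESC were close. The median difference over the 10 genes, FL_HSC minus ESC, was 0.65, beside -0.12 over 13239 genes with a mean of at least 1 TPM in some group. Pfkl (2.30), Tpi1 (1.23) and Ldha (1.22) were at least 1 higher in FL_HSC, 3 of 10 against 10.7% of all genes. Hk2 (-2.50) was at least 1 lower, 1 of 10 against 17.7%. Aldoa (-0.24), Pkm (-0.39), Pgk1 (0.28), Eno1 (0.34), Gpi1 (0.96) and, just under the threshold, Gapdh were within 1. Without the cells over 50% mitochondrial, the median was 0.03 and 1 gene was at least 1 higher.

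Both engrafted groups were lower than FL_HSC in all 10 genes. Eng_BM-HSC minus FL_HSC had a median of -3.89 (all genes -0.39), with 10 of 10 at least 1 lower against 29.1% of all genes and 0 at least 1 higher against 1.84%. The differences ran from -1.51 for Hk2 to -5.66 for Eno1, with Pgk1 at -4.75, Tpi1 at -4.74 and Gapdh at -4.06. Eng_ES-HSC minus FL_HSC had a median of -4.78 (all genes -0.52), with 10 of 10 lower against 35% and 0 higher against 2.26%, from -1.80 for Hk2 to -5.78 for Ldha. On the log2 of group mean TPM, in which a few high cells weigh more, the medians were -1.46 and -2.48, and Hk2 turned to 0.86 higher in Eng_BM-HSC than in FL_HSC.

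Against ESC the same held in all kept cells. Eng_BM-HSC minus ESC had a median of -3.33 with 10 of 10 lower (35.6% of all genes) and 0 higher (3.22%), from -1.10 for Pfkl to -5.32 for Eno1. Eng_ES-HSC minus ESC had a median of -4.28 with 10 of 10 lower (40.9%) and 0 higher (2.23%), from -1.53 for Pfkl to -5.18 for Eno1. These comparisons share groups and are not independent. At least 2 cycling markers were detected in 100% of ESC and 97.7% of FL_HSC, against 46.1% and 57.1% of Eng_BM-HSC and Eng_ES-HSC. Their summed level had medians of 1412 TPM in ESC and 747 in FL_HSC, against 28.1 and 167 in Eng_BM-HSC and Eng_ES-HSC. By mean TPM, however, Rrm2 (455) and Mcm5 (260) were highest in Eng_ES-HSC, and the other cycling markers in ESC or FL_HSC. The part of the cycling markers in the differences was not tested.

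The engrafted groups lay closer to each other. Eng_ES-HSC minus Eng_BM-HSC had a median of -0.52 (all genes -0.098), and Gpi1, Aldoa, Gapdh and Ldha (-1.98, the largest) were at least 1 lower, 4 of 10 against 8.55%. None was at least 1 higher, against 2.22%. The direction was not kept in richer cells: with at least 2000 genes the median was 0.89 (9 and 58 cells), and Aldoa was 1.36 higher in Eng_ES-HSC.

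Gene number and mitochondrial content moved with the level. Within each group, cells with more genes had higher levels of the 10 genes (Pearson r of their mean with gene number 0.863 in ESC and 0.705 in FL_HSC, and 0.702 and 0.819 in Eng_BM-HSC and Eng_ES-HSC, over 77, 87, 76 and 21 cells that share a library). The r with the mitochondrial percentage was -0.916 in ESC and -0.867 in FL_HSC, against -0.426 and -0.0954 in Eng_BM-HSC and Eng_ES-HSC. In ESC the mean level was 7.54 ± 0.97 in the 53 cells at or under 50% mitochondrial and 3.48 ± 1.44 in the 24 above it. In FL_HSC it was 7.47 ± 1.36 in 73 cells and 2.66 ± 1.17 in 14. In Eng_BM-HSC it was 3.18 ± 1.51 in 66 cells and 0.88 ± 0.61 in 10. Among cells at or under 50%, FL_HSC and ESC therefore had nearly equal means, and both exceeded the engrafted groups by more than the SD over cells.

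**Figure D2:**
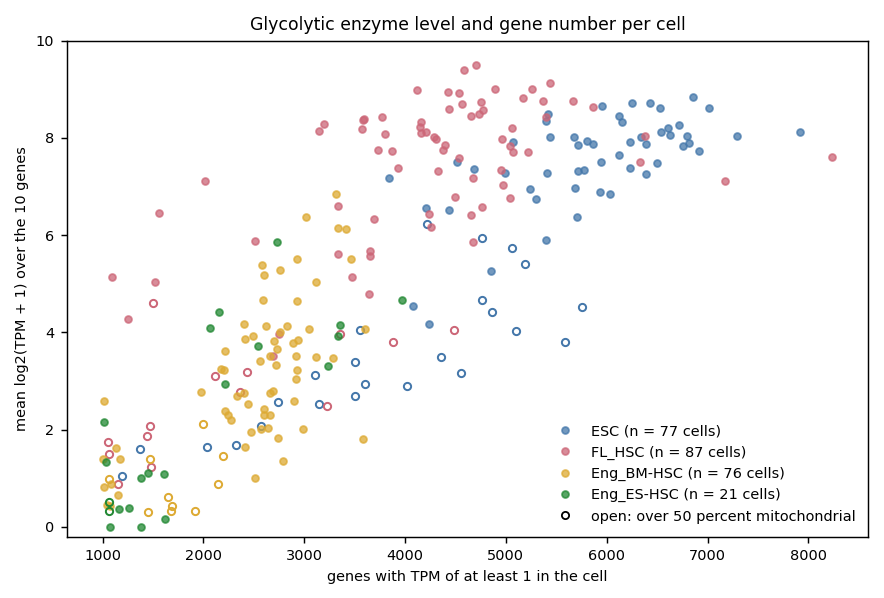
Mean log2(TPM + 1) over the 10 genes against the number of genes at a TPM of at least 1, 1 point per kept cell, coloured by group, with open points for cells over 50% mitochondrial. Most ESC of few genes are open points. At 3000 to 4000 genes FL_HSC lie highest (mean 6.54), above Eng_BM-HSC (4.81), Eng_ES-HSC (4.01) and ESC (3.69, 7 cells). At 2000 to 3000 genes FL_HSC (4.22, 7 cells) and Eng_ES-HSC (4.20, 5 cells) are level. Eng_BM-HSC (3.11, 47 cells) and ESC (1.99, 4 cells) are lower there.

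The comparison of ESC and FL_HSC at similar gene number changed with those mitochondrial cells. With ESC and FL_HSC matched on gene number (31 pairs), 9 of 10 genes were at least 1 higher in FL_HSC, against 22.4% of all genes, with a median of 2.13, and Hk2 was lower (-1.26), 1 of 10 against 9.74%. The matched ESC, however, had a median mitochondrial share of 54.1%, against 7.55% in the matched FL_HSC. With cells over 50% mitochondrial left out before matching (18 pairs), the median was 0.71 and 3 genes were at least 1 higher, against 23.2% of all genes: Pfkl (3.22), Gpi1 (1.42) and Tpi1 (1.35). None was at least 1 lower (14.7%), with Hk2 at -0.93. Pfkl was higher in FL_HSC by 2.30, 2.88 and 3.22 in all kept cells and these 2 matched sets, and Tpi1 by 1.23, 2.44 and 1.35. In cells with 1000 to 3000 genes (18 FL_HSC and 6 ESC, medians of 71% and 90.4% mitochondrial) Pfkl was 1.33 and Tpi1 2.41 higher, the median was 1.95, and 8 of 10 genes were at least 1 higher (13.6% of all genes) and 0 lower (7.22%).

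The engrafted groups had few ESC to be compared with at similar gene number. Matched on gene number, Eng_BM-HSC were higher than ESC by a median of 1.30 (6 of 10 at least 1 higher against 21.4% of all genes, and Hk2 and Tpi1 at least 1 lower against 7.92%), but this rested on 6 pairs whose ESC were a median 89.5% mitochondrial. Among cells with 1000 to 3000 genes the medians were 0.74 for Eng_BM-HSC and 0.23 for Eng_ES-HSC over 6 ESC, with a median mitochondrial share of 90.4%. In Eng_BM-HSC 4 of 10 were then at least 1 higher (16.5%) and 1 lower (4.58%), and in Eng_ES-HSC 1 higher (8.96%) and 1 lower (7.08%). Matching left only 3 pairs for Eng_ES-HSC and ESC, under the 5 needed. With cells over 50% mitochondrial left out, too few pairs were left for a value, so in ESC of ordinary mitochondrial content the comparison at equal gene number could not be made.

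On the mean log2(TPM + 1) scale, the median over the 10 genes stayed higher in FL_HSC than in both engrafted groups. Matched on gene number, Eng_BM-HSC minus FL_HSC had a median of -1.38 (18 pairs), with 8 of 10 at least 1 lower against 8.31% of all genes, 0 higher against 7.1%, and an all-gene median of 0. Eng_ES-HSC minus FL_HSC had a median of -1.22 (16 pairs), with 5 of 10 at least 1 lower against 9.41% and 0 higher against 8.27%. In these sets the FL_HSC had the higher mitochondrial share, medians of 33.4% and 61.4% against 11.6% and 18.5%. With cells over 50% mitochondrial left out the medians were -3.48 (10 pairs; 9 of 10 at least 1 lower against 17.3%, 0 higher against 8.42%) and -3.16 (8 pairs; 10 of 10 lower against 21%, 0 higher against 9.69%). In cells with 1000 to 3000 genes they were -0.92 (5 lower against 5.34%, 0 higher against 12.1%) and -1.96 (8 lower against 11.8%, 0 higher against 7.69%). Eno1 went from -3.17 to -4.73 and Pkm from -0.41 to -3.53 in Eng_BM-HSC minus FL_HSC, while Hk2 was 0.63 higher in the Eng_BM-HSC of that set. Ldha stayed among the largest in Eng_ES-HSC minus FL_HSC (-2.83 and -5.26). Mean TPM, in which a few high cells weigh more, was mixed. In cells with 1000 to 3000 genes Hk2, Gpi1, Aldoa, Tpi1, Pkm and Ldha (467 and 279 TPM) were higher in Eng_BM-HSC than in FL_HSC. Pfkl, Gapdh, Pgk1 and Eno1 (54 and 240 TPM) were lower. In the 16 matched pairs Hk2, Aldoa (383 and 122 TPM), Tpi1, Pgk1 and Pkm were higher in Eng_ES-HSC than in FL_HSC. Gpi1, Pfkl, Gapdh, Eno1 and Ldha (76.6 and 266 TPM) were lower.

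The engrafted groups differed little over the list as a whole in matched cells. In 19 matched pairs the median of Eng_ES-HSC minus Eng_BM-HSC was 0.28, with 0 of 10 genes at least 1 higher (5.82% of all genes) and 0 at least 1 lower (5.24%). Without the mitochondrial cells (12 pairs) it was -0.11, with Pkm 1.27 higher (6.99%) and Gpi1 (-1.03), Gapdh (-2.12) and Ldha (-1.49) at least 1 lower (10.1%). In cells with 1000 to 3000 genes it was -0.80, with 4 lower (12.5%) and 0 higher (2.33%). Gapdh and Ldha were below 0 in these 3 sets and in all kept cells (Gapdh -0.75 and Ldha -0.66 in the 19 pairs), but Ldha was 0.66 higher in cells with at least 2000 genes. Aldoa went from lower in all kept cells to 0.32 and 0.88 higher in the matched sets. The summed granulocyte markers, higher in Eng_ES-HSC, had an r of 0.0339 with the member mean over the 21 Eng_ES-HSC cells.

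**Figure D3:**
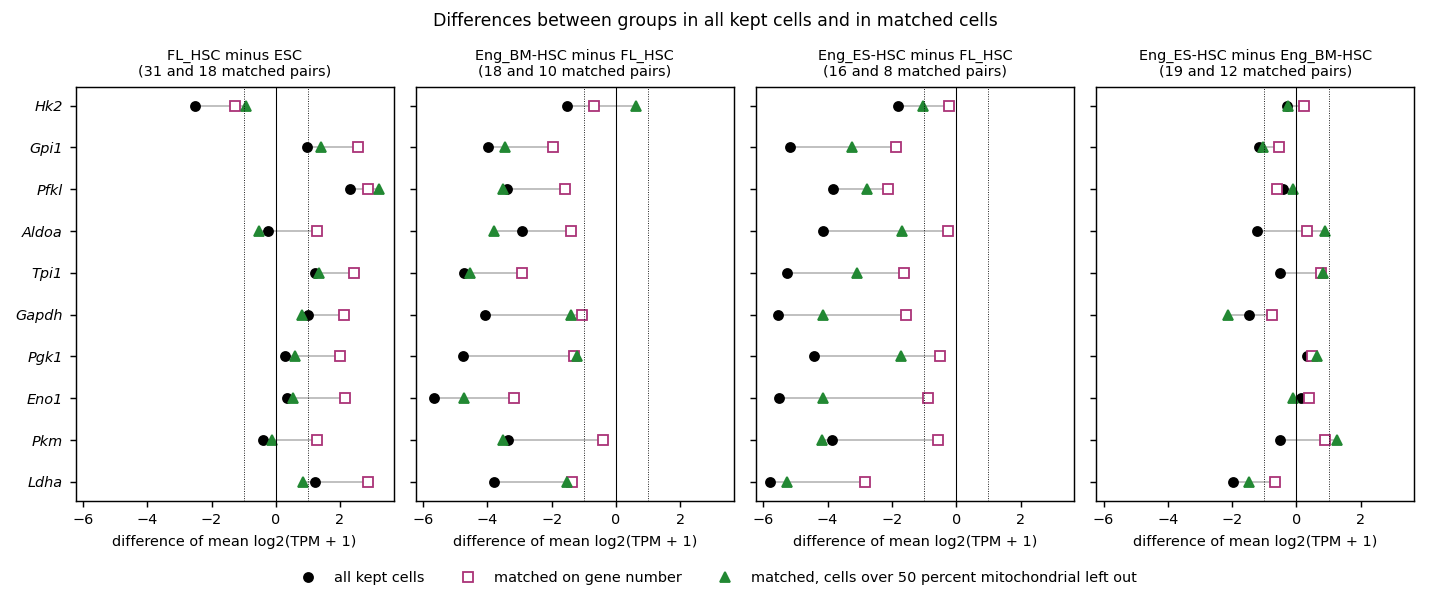
Difference of mean log2(TPM + 1) for each gene in 4 comparisons, in all kept cells (circles), in cells matched on gene number (squares) and in matched cells after those over 50% mitochondrial were left out (triangles), with dotted lines at 1 and -1. Values against FL_HSC stay below 0 for 9 of 10 genes in Eng_BM-HSC. In Eng_ES-HSC minus Eng_BM-HSC, Gpi1, Pfkl, Gapdh and Ldha stay below 0 and Pgk1 above 0, while the other genes lie on both sides of 0.

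Isozyme shares are of mean TPM, in which a few high cells weigh more. Ldhb, the heart-type chain that favours lactate oxidation, had a mean of 891 TPM in ESC, above Ldha at 641, so Ldha made up 41.7% of the family in ESC. Their mean log2(TPM + 1) in ESC was equal, at 7.84 for Ldha and 7.83 for Ldhb, with detection in 74 and 70 of 77 cells. In FL_HSC Ldhb was at 193 TPM and Ldha at 1135, and Ldha made up 85.5%; in Eng_BM-HSC the share was 76.4%. In Eng_ES-HSC Ldhb was detected in 1 of 21 cells at a mean of 0.324 TPM, and Ldha was 99.5% of the family. Ldhb was 3.33 lower in FL_HSC than in ESC, 2.57 lower in cells matched on gene number and 4.16 lower in matched cells without the mitochondrial ones. It was detected in 6 of 19 Eng_BM-HSC but 0 of 19 Eng_ES-HSC in matched pairs.

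Hexokinase was mostly Hk2 in ESC (93.2% of the family's mean TPM) and a mixture elsewhere. Hk1, the housekeeping form, made up 26.7% in FL_HSC. Hk3, a form of myeloid cells, was listed at 0 in all ESC and FL_HSC but was detected in 18 of 76 Eng_BM-HSC and 4 of 21 Eng_ES-HSC. In the latter it made up 73% of the family by mean TPM. On the log2 scale the forms were close there, at 1.20 for Hk3, 1.15 for Hk2 and 0.91 for Hk1. Hk2 and Hk1 were detected in 6 and 7 of the 21 cells. By mean TPM, Pfkp had the largest share of phosphofructokinase in ESC (52.8%), Pfkl in FL_HSC (58.7%) and Pfkm in Eng_BM-HSC (62.2%), with Pfkm detected in 21.1% of the last. In ESC the order turned on the log2 scale, where Pfkl had a mean of 1.57 and Pfkp of 1.22, with detection in 51.9% and 29.9% of cells. In Eng_ES-HSC all 3 together had a mean near 1 TPM, too low for a share to be read. Pyruvate kinase was Pkm in all groups (98.5% or more), and Pklr reached 8.46 TPM in FL_HSC. Aldoc, a second aldolase, made up 29.5% of the aldolase TPM in Eng_BM-HSC from 11 of 76 cells, and under 3% in ESC and FL_HSC.

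**Figure D4:**
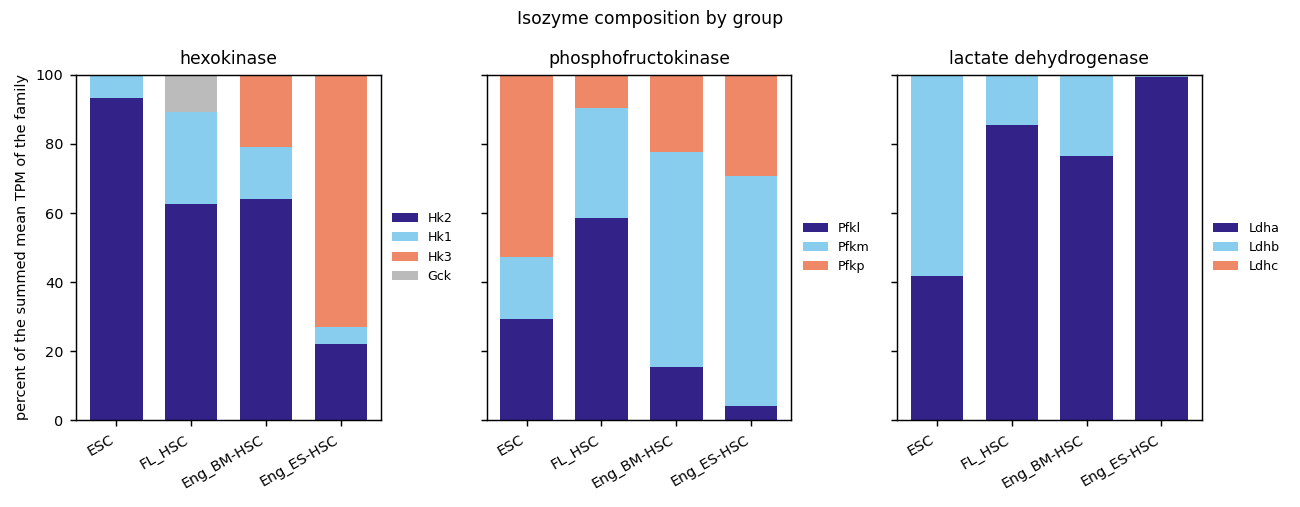
Share of each isozyme in the summed group mean TPM of its family (percent), for hexokinase, phosphofructokinase and lactate dehydrogenase in the 4 groups, with 1 bar per group. Ldhb takes 58% of the ESC bar in lactate dehydrogenase and almost none of the Eng_ES-HSC bar, and the phosphofructokinase bar of Eng_ES-HSC rests on a sum near 1 TPM.

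Near-identical copies that share at least 50% of their 31-base words with a member, and that have a row in the table, were found for 4 members. By GENCODE M21 transcripts, Eno1b shared 87.9% of its words with Eno1, Pgk1-rs7 100% with Pgk1, Gm1840 59.1% with Gpi1 and Gm3839 55.6% with Gapdh, and how the authors' counting split such reads is not given in the sources used here. Other annotated copies above that share had no row under their symbol and were not used, among them Gm4735 of Eno1 (89.5%), Gm5537 of Pgk1 (100%), Gm6560 of Pkm (58.4%), Tpi-rs11 of Tpi1 (56.1%) and many of Gapdh. Eno1b had a mean of 248 TPM in ESC and 5.56 in FL_HSC, against 3.25 and 125 in Eng_BM-HSC and Eng_ES-HSC, in the last of which Eno1 was at 89.1. Pgk1-rs7 was detected without Pgk1 in 14 of 76 Eng_BM-HSC and 6 of 21 Eng_ES-HSC. Gm3839 was detected in 14 Eng_ES-HSC cells in which Gapdh was not. With the copies added to their members, the median of FL_HSC minus ESC was 0.0067 in place of 0.65, and Gapdh in Eng_ES-HSC minus Eng_BM-HSC was 0.00077. The comparisons of the engrafted groups with ESC and FL_HSC kept medians between -3.33 and -4.26. The levels of Gapdh and Pgk1 in ESC and both engrafted groups, and of Eno1 in ESC and Eng_ES-HSC, are uncertain for this reason.

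Other genes of the pathway were read from lists. Glucose entry through Slc2a3, a high-affinity transporter, had a mean of 194 TPM and detection in 93.5% of ESC, but 12.6% or less of the cells of any other group. It was 5.33 lower in FL_HSC than in ESC and 5.62 lower in matched cells without the mitochondrial ones. Slc2a1, the widespread transporter, had means of 72.9 TPM in ESC and 25.5 in FL_HSC, against 19.8 and 0.0846 in Eng_BM-HSC and Eng_ES-HSC. Pgam1, phosphoglycerate mutase and the step between Pgk1 and Eno1, was 2.79 lower in FL_HSC than in ESC (448 and 151 TPM), unlike both of its neighbours. Bsg, the chaperone of lactate transporters, had close mean TPM in ESC and FL_HSC (116 and 123) but a mean log2 level 1.18 lower in FL_HSC, and lower means still in Eng_BM-HSC (34.6 TPM) and Eng_ES-HSC (7.24 TPM).

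The lower level in engrafted cells was shared with the citric acid cycle, the mitochondrial route that oxidises pyruvate carbon. Of 17 such genes, 16 were at least 1 lower in Eng_BM-HSC than in FL_HSC (median -2.83; 29.1% of all genes) and 17 in Eng_ES-HSC (median -3.52; 35%). In matched cells without the mitochondrial ones they were 8 (median -0.85; 17.3% of all genes) and 12 (median -2.35; 21%). The list tracked the 10 genes among cells with gene number taken out, at an r of 0.696 in ESC and 0.576 in FL_HSC, but of 0.273 and -0.0288 in Eng_BM-HSC and Eng_ES-HSC. Such tracking was not confined to this list. In ESC the r was 0.524 for pluripotency and 0.493 for cycling markers, but 0.0422 for granulocyte markers. In FL_HSC it was 0.414 for stem and progenitor and 0.218 for cycling markers, but -0.0316 for granulocyte markers. The mitochondrial percentage had an r of -0.702 in ESC and -0.788 in FL_HSC, and its part was not tested. The pentose phosphate list, the branch that makes NADPH, went the other way between the engrafted groups: in Eng_ES-HSC 2 of 7 were at least 1 above Eng_BM-HSC (2.22% of all genes), with a median of 0.85, and 5 of 7 in matched cells without the mitochondrial ones (median 1.41; 6.99% of all genes). G6pdx, its first enzyme, was 1.40 higher, with a mean of 332 TPM in Eng_ES-HSC from 23.8% of cells. Of 16 hypoxia factors and targets, 4 were at least 1 lower in Eng_BM-HSC than in FL_HSC, near the 29.1% of all genes. In Eng_ES-HSC 5 were at least 1 lower, near the 35% of all genes. The list medians were -0.62 and -0.50, beside -0.39 and -0.52 over all genes. Epas1, Arnt, Vhl, Egln1, Egln3, Vegfa, Ankrd37, Adm, Ddit4 and Ndrg1 had mean log2 levels of 0.92 or less in FL_HSC, so they could not fall by 1. Of the others, Hif1a, Egln2, Bnip3 and Higd1a were at least 1 lower in both engrafted groups. P4ha1 was so in Eng_ES-HSC (-1.21) but not in Eng_BM-HSC (-0.99), and Kdm3a (-0.81) in neither. Bnip3, a target that promotes mitophagy, was 2.42 higher in FL_HSC than in ESC, and no other gene of the list was at least 1 higher. Kdm3a (-2.79), Higd1a (-1.29) and Epas1 (-1.17) were at least 1 lower in FL_HSC than in ESC.

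The members varied together in the 2 richer groups. After a straight line on gene number was taken out, the median r over the 45 pairs of members was 0.287 in ESC and 0.337 in FL_HSC, beside 0.0221 and 0.024 over all gene pairs in those groups. All 45 pairs were above 0 in FL_HSC, and the highest was Pkm with Ldha at 0.736. In ESC the highest was Aldoa with Eno1 at 0.589. In Eng_BM-HSC the median was 0.048, with 30 of 45 above 0, a weak relation in sparse data. The mitochondrial percentage still had an r of -0.702 in ESC and -0.788 in FL_HSC with the member mean after gene number was taken out, and its part in these correlations was not tested. Among 3261 other genes compared in ESC, FL_HSC and Eng_BM-HSC, those most like the member mean over cells were Eef1g (mean r 0.611), Set (0.596), Erh (0.589), Eif3i (0.576) and Prdx1 (0.566).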

How the data were processed

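Single cells of 4 groups had been sequenced as polyA RNA, per the labels. Without roles, the submitters' processing notes name GRCm38, Salmon 0.3.2 and HISAT 0.1.6. Neither annotation nor kit was stated. What the authors deposited is a natural log of TPM, ln(TPM + 1); base and constant are not stated and were read from the totals of exp(x) - 1, which lay between 414503 and 962583 per cell. TPM keeps no depth, so depth per cell is unknown.

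Values were turned to log2(TPM + 1), with a pseudocount of 1. Spike-in and cassette rows were left out, leaving 21970 genes. Cells were grouped by title. Cells of a group with profiles correlated above 0.9 were averaged, which joined ESC cells 22 and 64 and Eng_ES-HSC cells 31 and 34, and 33 and 36. Of 313 cells, 261 with at least 1000 genes were kept; 7 FL_HSC, 0 ESC, 19 Eng_BM-HSC, and 26 Eng_ES-HSC were left out. Doublets were not called. With 1 sample a group no test was run; differences are between group means, and 95% intervals of cell shares are exact (Clopper-Pearson), with 3 cells of the total as the limit for a share of 0. Matching paired cells one to one on gene number within 10%, and needed at least 5 pairs. Named genes were the 10 members, genes of the pathway and marker lists, and the 5 genes most like the member mean. The steps were tested on simulated data. The members and lists were chosen with earlier results of these data known. Alternatives changed the pseudocount, filters, scaling, cells used and treatment of copies; matching after leaving out cells over 50% mitochondrial was chosen after seeing the data. Python 3.11.15, pandas 2.3.3, numpy 2.4.6 and scipy 1.17.1 were used.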

Additional observations from a re-analysis of the deposited data

How the results depend on the processing

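No paired analysis was possible because replicate numbers only name cells and no test was run. Of 75 alternative medians over the 10 genes 64 moved by less than 1 SD over cells, 8 moved further and 3 with a main value of at least 1 changed sign. Among the 64, 2 with a main value under 1 changed sign too: Eng_ES-HSC minus Eng_BM-HSC went from -0.52 to 0.89 with at least 2000 genes and 0.28 when matched. Of 750 single-gene differences 55 changed sign, 32 of them from a main value of at least 1 and 23 from a smaller one, and of 75 counts 17 moved by over 1.5 times. Unless said, the cause was not tested. The 3 medians of at least 1 that changed sign were Eng_BM-HSC minus ESC at 0.74 in cells with 1000 to 3000 genes and 1.30 when matched on gene number, and Eng_ES-HSC minus ESC at 0.23 in cells with 1000 to 3000 genes; the ESC in these sets were mostly mitochondrial. Moved medians were -2.14 for Eng_ES-HSC minus ESC with at least 2000 genes; -0.92, -1.38 and -1.46 for Eng_BM-HSC minus FL_HSC (1000 to 3000 genes, matched, log2 of mean TPM); -1.96, -1.22 and -2.48 for Eng_ES-HSC minus FL_HSC under the same settings; and -1.16 for Eng_BM-HSC minus ESC on log2 of mean TPM. The number of genes higher in FL_HSC than in ESC was 5 with a pseudocount of 0.1, at least 2000 genes, rescaling without mitochondrial, ribosomal and globin genes, or quantile normalization; 8 with 1000 to 3000 genes; 9 when matched; and 1 with no filter on cells or without cells over 50% mitochondrial. The number lower in Eng_ES-HSC than in Eng_BM-HSC was 1 with a pseudocount of 10 or at least 2000 genes, and 0 when matched. The number lower than ESC was 1 (1000 to 3000 genes), 2 (matched) and 6 (log2 of mean TPM) in Eng_BM-HSC, and 1 in Eng_ES-HSC (1000 to 3000 genes). Against FL_HSC it was 5 in Eng_BM-HSC (1000 to 3000 genes) and 5 in Eng_ES-HSC (matched).

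Among the 23 smaller ones were, in matched cells, FL_HSC minus ESC for Aldoa (-0.24 to 1.27) and Pkm (-0.39 to 1.28), and Eng_ES-HSC minus Eng_BM-HSC for Tpi1 (-0.52 to 0.77), Pkm (-0.51 to 0.90) and Hk2 (-0.29 to 0.25). The 32 differences with a main value of at least 1 turned as follows. With 1000 to 3000 genes, Eng_BM-HSC minus ESC was 2.46 for Gpi1, 0.0059 for Pfkl, 1.92 for Aldoa, 0.43 for Tpi1, 1.52 for Gapdh, 0.64 for Pgk1, 0.85 for Pkm and 2.57 for Ldha. Eng_ES-HSC minus ESC there was 1.12 for Gpi1, 0.14 for Aldoa, 0.34 for Gapdh, 0.89 for Pgk1, 0.37 for Pkm and 0.31 for Ldha, and Eng_BM-HSC minus FL_HSC was 0.44 for Hk2 and 0.32 for Gapdh. Matched on gene number, Eng_BM-HSC minus ESC was 1.70 for Gpi1, 0.54 for Pfkl, 1.46 for Aldoa, 3.05 for Gapdh, 3.54 for Pgk1, 1.14 for Pkm and 2.72 for Ldha. Eng_ES-HSC minus Eng_BM-HSC turned for Aldoa to 0.32 (matched), 0.88 (matched without mitochondrial cells), 1.36 (at least 2000 genes) and 0.22 (log2 of mean TPM), for Gpi1 to 0.23 and Ldha to 0.66 (at least 2000 genes), and for Gapdh to 0.00077 (copies added). Hk2 in Eng_BM-HSC minus FL_HSC turned to 0.86 (log2 of mean TPM) and 0.63 (matched without mitochondrial cells). Matching gave no value for Eng_ES-HSC minus ESC, with 3 pairs. Leaving out replicates was not run, since cells are not replicates. Of 80 shares of cells 30 moved at other detection thresholds, and of 12 background shares 7 moved with the filter on genes.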
